A study of Mus musculus with 16 samples.

Results

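The genes followed here write, maintain or remove methyl marks on histone H3 lysine 9 (H3K9) and on DNA, and were measured in mammary tumors of *Resf1* gene trap and wildtype mice. The 10 genes were chosen by name and are 10 of the 23609 genes in the table. They are the H3K9 methyltransferases *Suv39h1*, *Suv39h2*, *Ehmt1* and *Ehmt2*, the DNA methyltransferases *Dnmt1*, *Dnmt3a* and *Dnmt3b*, the DNA methylation cofactor *Uhrf1*, and the 5-methylcytosine dioxygenases *Tet2* and *Tet3*. All 10 were found by symbol and all 10 passed the filter on low values, which asked for a mean normalized value of 10 or more.

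Each tumor came from a mouse that carried the MMTV-PyMT transgene, in which a mouse mammary tumor virus promoter drives the polyoma middle T oncogene in mammary epithelium. The gene trap mice were in addition heterozygous for *Resf1* (labelled Resf1 +/-), with a lentiviral EGFP-cre cassette inserted in the first exon. The mice thus inherited 1 untrapped allele. Whether the tumors kept it was not tested here. The authors report that many primary tumors of a separate *Resf1* knockout cross had lost the wildtype allele. They also report less *Resf1* mRNA in gene trap tumors by qRT-PCR. The trap line was kept on C57BL/6 and crossed to MMTV-PyMT mice on FVB, and the wildtype tumors were from littermates that carried the transgene and had no trap. RNA-seq was run on total RNA. Of 8 labelled tumors in each group, 5 wildtype and 5 gene trap tumors had a column that could be matched to a label, and these 10 were used. The labels give no age, and they do not state that each tumor came from a separate animal, so the p-values measure the spread between these tumors.

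H3K9 methylation is laid down by SET domain enzymes. SUV39H1 and SUV39H2 trimethylate H3K9 in pericentric heterochromatin, and EHMT1 (GLP) and EHMT2 (G9a) form a complex that places monomethyl and dimethyl marks in euchromatin. DNMT3A and DNMT3B methylate unmodified CpG sites, DNMT1 copies the pattern to the new strand after replication, and UHRF1 recruits DNMT1 by binding hemimethylated CpG and methylated H3K9, which ties the DNA mark to the histone mark. TET2 and TET3 oxidize 5-methylcytosine, a step in its removal. RESF1 is known as a partner of the H3K9 methyltransferase SETDB1 in the silencing of retroelements in embryonic stem cells. In breast cancer cell lines with less *Resf1*, the authors report unchanged retroelement transcripts and unchanged global H3K9 trimethylation.

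The values are read estimates that had been normalized between tumors, so the depth behind each value is unknown and the precision is given by the spread between tumors. Fold changes are gene trap minus wildtype on the log2(value + 1) scale, with standard errors from limma and Benjamini-Hochberg adjustment over the 21034 genes that passed the filter. A 2-sided exact permutation test over the 252 arrangements of 5 and 5 tumors, whose smallest possible p is 0.00794, is given beside limma. *Resf1* itself had values of 4215, 4397, 3881, 4487 and 3517 in the wildtype tumors and 4029, 3066, 3686, 3392 and 3409 in the gene trap tumors. The groups overlapped, with 3 gene trap tumors below all wildtype tumors. The gene trap mean differed by -14.2% from the wildtype mean (log2 fold change -0.22, SE 0.091, unadjusted limma p = 0.0313, adjusted p = 0.9997, exact permutation p = 0.0635), so the trapped gene was not called after adjustment. All 12 luminal epithelial markers were present, and their summed value ranged from 127941 to 162276 in wildtype and from 127838 to 159389 in gene trap tumors.

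Gene trap replicate 2 was unlike the rest. Its first principal component score (31.1% of the variance) was 91.8, against -18.6 to -4.78 in the other tumors, and 926 genes had less than 0.5 times their value in any other tumor, against 11 to 53 such genes for each other tumor. Values of the 10 genes that it moves by much are given with and without it. Fold changes of *Resf1* and of the listed genes below rest on all 10 tumors. *Resf1* had its lowest value in this tumor, at 3066. The 8 myoepithelial and basal markers were all lower in the gene trap group, 2 of them at an unadjusted p under 0.05, and their summed value was 7452 to 10277 in wildtype and 5537 to 7455 in gene trap tumors (exact permutation p = 0.0159, adjusted p = 0.159 over the 10 marker lists). The 8 lists other than these and the luminal list had an exact permutation p of 0.452 or more. A shared direction was not particular to the myoepithelial list. All 5 tested adipocyte markers were also lower, as were 8 of 10 endothelial and 8 of 10 macrophage markers, while 9 of 10 fibroblast markers were higher. The remaining lists were mixed. The part of the myoepithelial markers in the results for the 10 genes was not tested.

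Promoter sequence is shown for *Suv39h1*, *Dnmt1* and *Uhrf1*, the members whose windows held an E2F-type motif. E2F factors act on many genes of DNA replication. Windows of 250 bases before and 50 after each RefSeq start site (GRCm38.p6) were searched on both strands for TTTCCCGC, TTTGGCGC, TTTCGCGC and TTTGCCGC, with overlapping matches counted. These genes had alternative RefSeq start sites, and in each gene only the window of the most downstream site held a match. Each stretch below is 60 bases long and lies upstream of that site but downstream of the other start sites. The stretches read 5′ to 3′ on the strand of the gene, with the match in capitals. They are chrX:8074392-8074451 (minus strand) for *Suv39h1*, chr9:20952809-20952868 (minus strand) for *Dnmt1* and chr17:56304102-56304161 (plus strand) for *Uhrf1*.
Suv39h1: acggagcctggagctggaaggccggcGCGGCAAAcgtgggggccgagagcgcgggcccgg
Dnmt1: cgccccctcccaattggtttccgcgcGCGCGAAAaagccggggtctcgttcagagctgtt
Uhrf1: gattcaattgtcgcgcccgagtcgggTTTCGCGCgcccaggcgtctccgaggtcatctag

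The matches in *Suv39h1* and *Dnmt1* are on the opposite strand to the gene, as TTTGCCGC and TTTCGCGC, and the match in *Uhrf1* is TTTCGCGC on the strand of the gene. They begin 64, 219 and 185 bases before the most downstream start site of the gene, respectively. The same *Dnmt1* window held TTTGGCGC on the strand of the gene, beginning at base 33 after the start site. Of the 17 windows of the 10 genes, 3 (17.6%) held a match, against 744 of 32851 windows of all genes (2.26%), 3.56% of the windows of tested genes and 11 of the 35 windows of S phase genes (31.4%). The members' windows were also rich in CpG, with a median of 33 CpG dinucleotides against 18 in the windows of tested genes. A match of letters is a description of the window and not a binding site.

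When the levels of the 10 genes were set side by side, divided by the length of the longest annotated transcript, *Ehmt2*, *Dnmt1* and *Uhrf1* stood highest and *Suv39h2* and *Dnmt3b* lowest. *Ehmt2* had a normalized value per kilobase of 1317 ± 179 (SD, n = 10), higher than 93.2% of the 20536 tested genes with a length. *Dnmt1* followed at 984 ± 73.0 per kilobase and *Uhrf1* at 731 ± 125. *Ehmt1*, *Tet2*, *Dnmt3a* and *Tet3* formed the middle of the order, at 489 ± 31.3, 411 ± 50.5, 408 ± 52.8 and 336 ± 47.3 per kilobase. *Suv39h1* was at 216 ± 16.7, *Suv39h2* at 70.3 ± 12.2 and *Dnmt3b* at 63.6 ± 11.0 per kilobase, the last above 36.0% of genes.

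**Figure D1:**
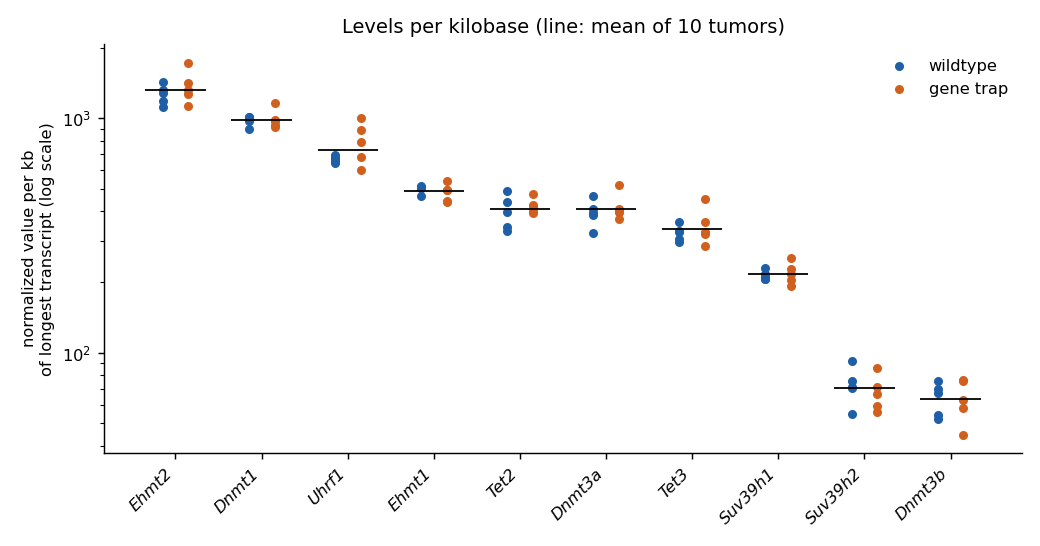
Normalized value per kilobase of the longest transcript (log scale) for each of the 10 genes, with a point for each of 5 wildtype (blue) and 5 gene trap (orange) tumors and a line at the mean of the 10 tumors. The order runs from *Ehmt2* at 1317 to *Dnmt3b* at 63.6 per kilobase, and blue and orange points overlap for every gene.

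Not all neighbours in this order could be separated. *Tet2* exceeded *Dnmt3a* per kilobase in 6 of 10 tumors, and *Suv39h2* exceeded *Dnmt3b* in 8 of 10. The other neighbours kept their order in 10 of 10 tumors, and the ranges of 3 neighbouring pairs did not overlap, *Uhrf1* above *Ehmt1*, *Tet3* above *Suv39h1* and *Suv39h1* above *Suv39h2*. The order depended on the length used. With the median transcript length in place of the longest, *Ehmt2* (4917 per kilobase) and *Dnmt3a* (4811) led, and *Dnmt1* (1101) and *Uhrf1* (773) ranked below *Ehmt1* (1882) and *Tet2* (1568), while *Suv39h1* (242), *Suv39h2* (135) and *Dnmt3b* (67.0) kept the 3 lowest places. On the longest transcript, genes of the same families outside the 10 reached 63.9 per kilobase for *Tet1* and 981 for *Uhrf2*. *Setdb1*, which encodes a further H3K9 methyltransferase, reached 448 per kilobase and its relative *Setdb2* 110.

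The first comparison asked whether these genes differed between gene trap and wildtype tumors. No difference passed adjustment. By limma, 0 of the 10 genes had an adjusted p under 0.05, as had 0% of the 21034 tested genes, and 0 of the 10 had an unadjusted p under 0.05, against 479 tested genes (2.28%). The wildtype and gene trap values overlapped for all 10 genes, and 0.528% of tested genes had groups that did not overlap. Of the 10, 7 were higher and 3 lower in the gene trap group, with a median log2 fold change of 0.06 against 0.00 over all tested genes and a median size of 0.09 against 0.10. The median log2 fold change of the 10 was 0.012 without gene trap replicate 2 and 0.10 without gene trap replicate 5, the lowest and highest on leaving out 1 tumor. In bulk tumors, fewer cells of a type and less RNA per cell cannot be told apart.

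**Figure D2:**
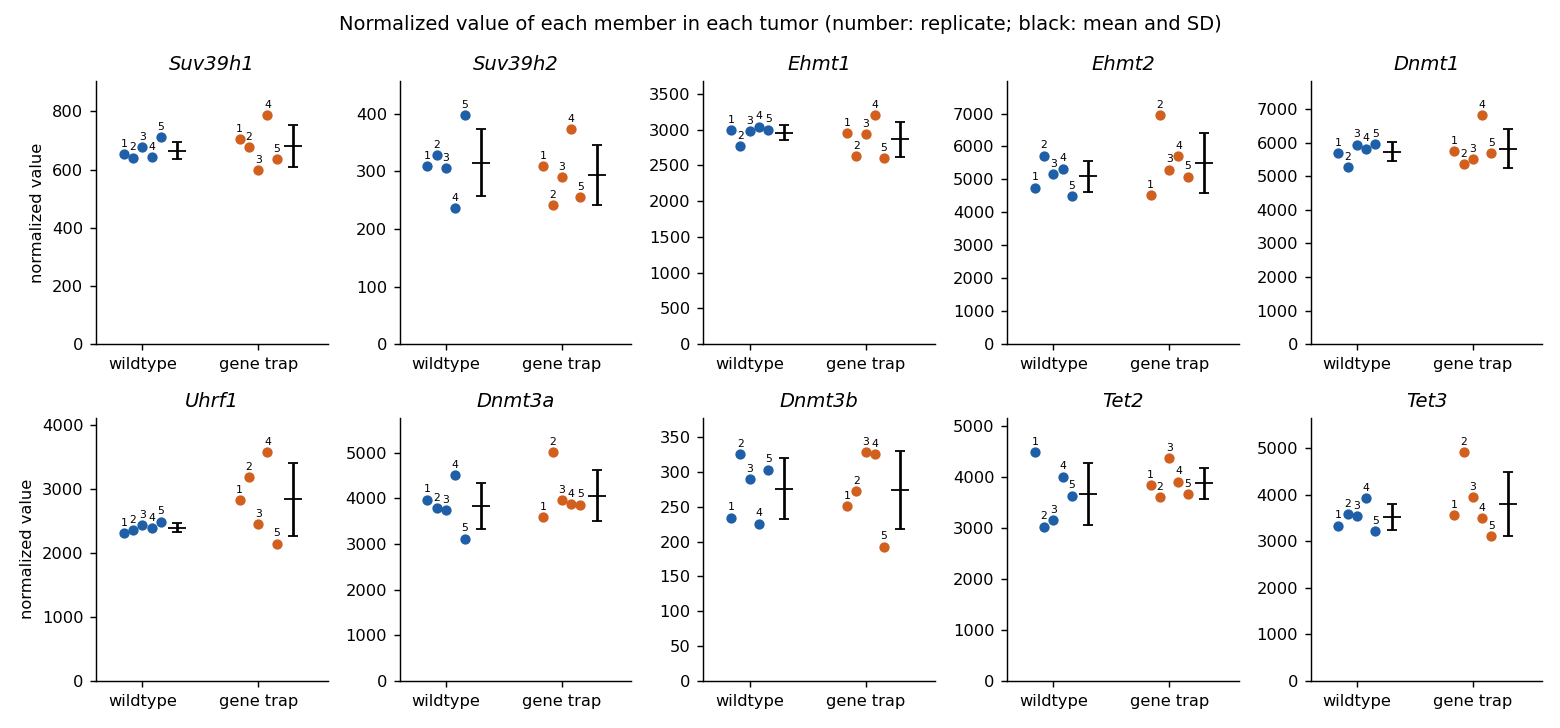
Normalized value of each gene in each tumor, wildtype in blue and gene trap in orange, with the replicate number above each point and the mean and SD of 5 tumors in black. The groups overlap in every panel, *Uhrf1* ranges from 2310 to 2493 in wildtype and from 2149 to 3582 in gene trap tumors, and gene trap replicate 2 has the highest value of *Ehmt2*, *Dnmt3a* and *Tet3*.

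*Uhrf1* had the largest difference of the 10 genes. Its values were 2310, 2360, 2439, 2394 and 2493 in the wildtype tumors and 2830, 3190, 2451, 3582 and 2149 in the gene trap tumors. The wildtype tumors lay close together, while 3 gene trap tumors were above all of them and 1, replicate 5, was below all of them. The means were 2399 ± 70.5 and 2840 ± 570 (SD, n = 5 each). The log2 fold change was 0.22 (SE 0.120, 95% interval of the fold 0.972 to 1.40, unadjusted limma p = 0.0904, adjusted p = 0.9997, exact permutation p = 0.135), and 23.0% of tested genes had a difference at least as large. Without gene trap replicate 2 the log2 fold change was 0.17 and without replicate 4 it was 0.13, and without replicate 5 it was 0.31 with an unadjusted limma p of 0.0101 and an adjusted p of 0.990.

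*Dnmt1*, the maintenance methyltransferase that UHRF1 recruits, had values of 5696, 5261, 5940, 5820 and 5942 in wildtype and 5745, 5361, 5498, 6808 and 5696 in gene trap tumors. Gene trap replicate 4 was above all others, and the remaining 4 gene trap tumors fell within the wildtype range. The log2 fold change was 0.02 (SE 0.076, fold interval 0.903 to 1.14, exact permutation p = 0.833), and it was -0.04 without replicate 4 and 0.05 without replicate 2. The ratio of *Uhrf1* to *Dnmt1* values was 0.406, 0.448, 0.411, 0.411 and 0.420 in wildtype tumors and 0.493, 0.595, 0.446, 0.526 and 0.377 in gene trap tumors. It was higher than the wildtype mean of 0.419 in 4 of 5 gene trap tumors and overlapped the wildtype range, and the difference did not pass the exact permutation test (p = 0.127). Without gene trap replicate 2 the mean ratio of the gene trap tumors was 0.460, against 0.487 with it. Other ratios were computed too, and this one had the smallest exact permutation p. That p was 0.357 for *Suv39h1* to *Suv39h2*, 0.381 for *Ehmt2* to *Ehmt1*, 0.627 for *Dnmt3a* to *Dnmt3b* and 0.984 for *Tet2* to *Tet3*.

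*Dnmt3a* and *Dnmt3b* encode the de novo methyltransferases. *Dnmt3a* values were 3975, 3796, 3745, 4519 and 3121 in wildtype and 3596, 5018, 3967, 3869 and 3865 in gene trap tumors. Gene trap replicate 2 was highest and wildtype replicate 5 lowest, with the other tumors mixed between them. The log2 fold change of 0.09 (SE 0.110, fold interval 0.899 to 1.25, exact permutation p = 0.468) was 0.01 without replicate 2. *Dnmt3b* values were 234, 325, 290, 226 and 303 in wildtype and 251, 272, 328, 325 and 193 in gene trap tumors, a range of 1.70-fold over the 10 tumors. Both groups held high and low tumors, and the log2 fold change was -0.02 (SE 0.165, fold interval 0.769 to 1.26, exact permutation p = 0.921).

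*Suv39h1* and *Suv39h2* encode the pericentric H3K9 methyltransferases. *Suv39h1* values were 654, 642, 677, 643 and 713 in wildtype and 706, 677, 600, 787 and 638 in gene trap tumors. The highest and the lowest tumor were both gene trap tumors, replicates 4 and 3, and the log2 fold change was 0.03 (SE 0.086, fold interval 0.895 to 1.16, exact permutation p = 0.722). *Suv39h2* values were 309, 328, 305, 236 and 397 in wildtype and 309, 241, 289, 373 and 256 in gene trap tumors. All 5 gene trap tumors lay within the wildtype range. The log2 fold change was -0.10 (SE 0.155, fold interval 0.740 to 1.18, exact permutation p = 0.540). It was -0.03 without gene trap replicate 2, -0.20 without wildtype replicate 4 and -0.01 without wildtype replicate 5.

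*Ehmt1* and *Ehmt2* encode the GLP and G9a subunits of 1 complex. *Ehmt1* values were 2990, 2772, 2982, 3042 and 2999 in wildtype and 2948, 2631, 2936, 3198 and 2604 in gene trap tumors. *Ehmt1* was the least variable of the 10 genes, with a coefficient of variation of 6.40% over the 10 tumors, and its log2 fold change was -0.05 (SE 0.071, fold interval 0.868 to 1.08, exact permutation p = 0.397), or -0.02 without gene trap replicate 2 and -0.09 without gene trap replicate 4. *Ehmt2* values were 4749, 5726, 5159, 5326 and 4500 in wildtype and 4514, 6944, 5298, 5700 and 5088 in gene trap tumors. Gene trap replicate 2 was above all other tumors for *Ehmt2* and the second lowest for *Ehmt1*. The *Ehmt2* log2 fold change of 0.10 (SE 0.110, fold interval 0.910 to 1.27, exact permutation p = 0.476) was 0.02 without it.

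*Tet2* and *Tet3* encode the dioxygenases. *Tet2* values were 4492, 3029, 3162, 4010 and 3636 in wildtype and 3845, 3601, 4367, 3913 and 3671 in gene trap tumors. The gene trap tumors all lay within the wildtype range, and the log2 fold change was 0.09 (SE 0.108, fold interval 0.907 to 1.26, exact permutation p = 0.452). It ranged from 0.03 without wildtype replicate 2 to 0.17 without wildtype replicate 1. *Tet3* values were 3340, 3588, 3551, 3935 and 3217 in wildtype and 3569, 4921, 3946, 3503 and 3114 in gene trap tumors. Gene trap replicate 2 was again the highest tumor, and the log2 fold change of 0.10 (SE 0.111, fold interval 0.905 to 1.27, exact permutation p = 0.50) was 0.00 without it.

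**Figure D3:**
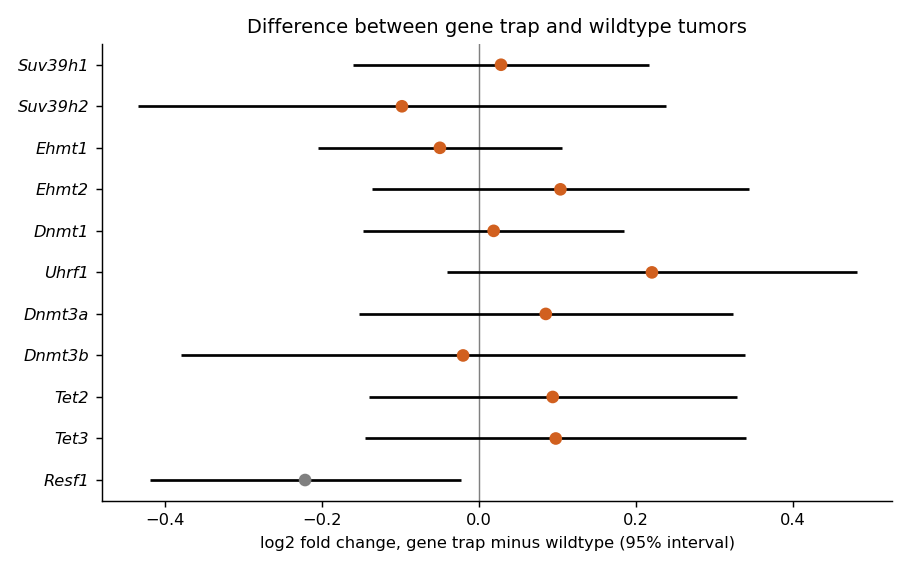
Log2 fold change of gene trap over wildtype tumors with its 95% limma interval for the 10 genes and, in grey, *Resf1*. The intervals of all 10 genes include 0, that of *Uhrf1* lies furthest to the right, and that of *Resf1* lies below 0 before adjustment for the number of genes tested.

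The second comparison set the 10 genes against the level of S phase genes in each tumor, since maintenance methylation is coupled to replication. An S phase score was taken as the mean z score of 40 S phase genes, none of them among the 10 genes. The score was -0.320, -0.391, 0.367, -0.420 and 0.528 in the wildtype tumors and 0.0116, 0.141, -0.866, 1.62 and -0.665 in the gene trap tumors. Gene trap tumors held both the lowest and the highest score, and the group means were -0.0474 ± 0.457 and 0.0474 ± 0.976 (SD, n = 5 each, exact permutation p = 0.857).

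Across the 10 tumors, *Suv39h1* followed the score most closely, with Pearson r = 0.958 (permutation p = 5.0e-05, adjusted p = 0.0956) and Spearman rho = 0.952 (permutation p = 0.00012). Its r was higher than that of 99.97% of tested genes. The 40 genes of the score had r from 0.198 to 0.965 with a median of 0.739, and the median over all tested genes was -0.01. *Suv39h1* kept r = 0.867 without gene trap replicates 3 and 4, the 2 tumors farthest from the median score, 0.960 without gene trap replicate 2 and 0.960 within groups.

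*Dnmt1* came next, with r = 0.801 (permutation p = 0.0119, adjusted p = 0.605) and rho = 0.612 (permutation p = 0.0667). *Uhrf1* had r = 0.767 (permutation p = 0.0118, adjusted p = 0.603) and rho = 0.648 (permutation p = 0.0502). Both values rested on gene trap replicate 4, the tumor with the highest score. Without it r was 0.419 for *Dnmt1* (permutation p = 0.259) and 0.479 for *Uhrf1* (permutation p = 0.200), and without the 2 tumors farthest from the median it was 0.372 and 0.523. Without gene trap replicate 2 the values were 0.885 and 0.828. Within groups they were 0.795 and 0.854. *Suv39h2* had r = 0.598 (permutation p = 0.0656), *Ehmt1* 0.524 (permutation p = 0.120) and *Dnmt3b* 0.417 (permutation p = 0.234). *Ehmt2*, *Tet3*, *Tet2* and *Dnmt3a* had r of 0.104, -0.0708, -0.167 and -0.216, with permutation p of 0.757, 0.830, 0.645 and 0.528. Without gene trap replicate 2, r was 0.705 for *Suv39h2* (permutation p = 0.0340), 0.662 for *Ehmt1*, -0.224 for *Tet3* and -0.367 for *Dnmt3a*.

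By this permutation test 0 of the 10 genes, like 0% of tested genes, had an adjusted p under 0.05, and 3 of 10 had an unadjusted p under 0.05, against 5.88% of tested genes. These 3, *Suv39h1*, *Dnmt1* and *Uhrf1*, are the same 3 genes whose windows held an E2F-type match, but which genes had an unadjusted p under 0.05 changed with the tumors and settings used. *Suv39h2*, without a match, joined them when gene trap replicate 2 or wildtype replicate 2 was left out (permutation p = 0.0340 and 0.0493) and under quantile normalization (permutation p = 0.0207), and *Dnmt3b*, also without a match, when gene trap replicate 3 was left out (permutation p = 0.0394). Without gene trap replicate 4 *Suv39h1* alone was under 0.05. With a score of G2 and M phase genes instead, the genes under 0.05 were *Suv39h1*, *Suv39h2*, *Ehmt1* and *Dnmt1*. Their permutation p after adjustment was 0.108, 0.374, 0.639 and 0.330, respectively. The share of all tested genes under 0.05 was counted only for the S phase score in all 10 tumors. The genes named for the other settings therefore have no background share beside them. Whether the match has a part in the relation was not tested.

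**Figure D4:**
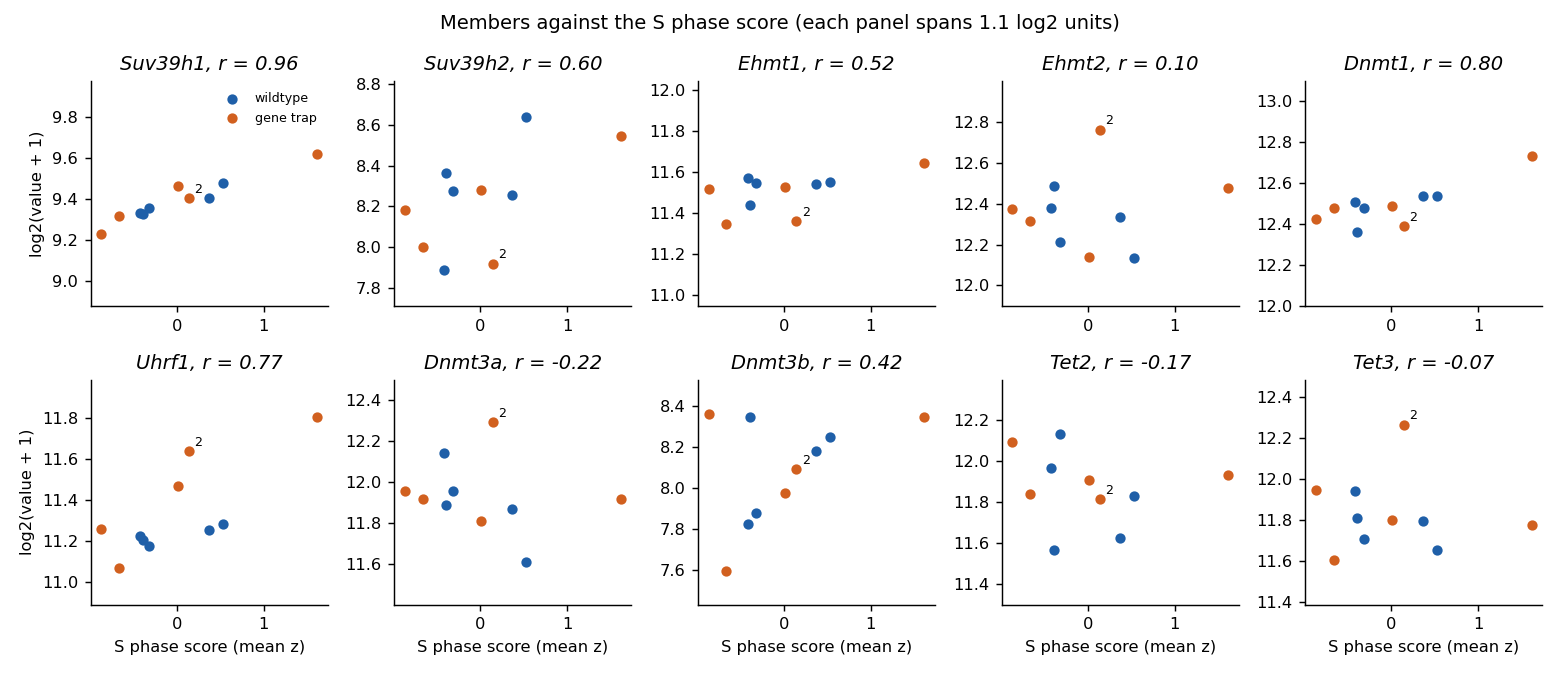
Log2(value + 1) of each gene against the S phase score (mean z score of 40 genes), 1 point per tumor, wildtype in blue, gene trap in orange and gene trap replicate 2 marked, with every panel spanning the same height. *Suv39h1* lies along a line (r = 0.958), *Dnmt1* (0.801) and *Uhrf1* (0.767) are high in the gene trap tumor at 1.62, and *Dnmt3a* (-0.216), *Tet2* (-0.167) and *Tet3* (-0.0708) are the lowest.

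Among the 45 pairs of the 10 genes, 6 had r above 0.7 and 1 below -0.7 across the 10 tumors, and 4 and 1 without gene trap replicate 2, given as descriptions without a test. All pairs share the same libraries. The share of all gene pairs beyond these cutoffs was not counted, so the counts have no background beside them. *Suv39h1* with *Dnmt1* (r = 0.778) and with *Uhrf1* (0.751) stayed above 0.7 without gene trap replicate 2, at 0.846 and 0.829, and *Dnmt1* with *Uhrf1* and *Ehmt1* with *Uhrf1* moved from 0.486 to 0.785 and from 0.282 to 0.706, respectively. *Dnmt3a* with *Tet3* (0.803), *Ehmt2* with *Dnmt3a* (0.782) and *Ehmt2* with *Tet3* (0.775) fell to 0.580, 0.554 and 0.423 without that tumor, in which all 3 genes had their highest value. *Ehmt1* with *Dnmt1* went from 0.719 to 0.669. *Suv39h2* and *Dnmt3a* ran in opposite directions, with r = -0.807 across the 10 tumors and -0.769 without gene trap replicate 2.

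**Figure D5:**
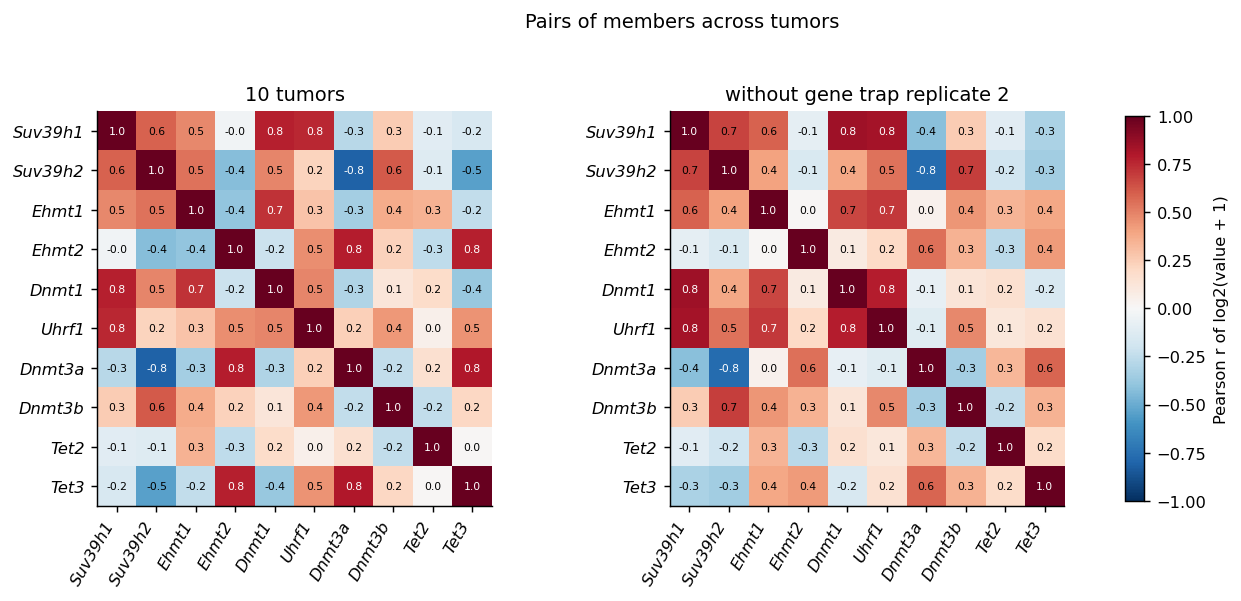
Pearson r of log2(value + 1) for each pair of the 10 genes across 10 tumors (left) and without gene trap replicate 2 (right), from -1 in blue to 1 in red. The links among *Ehmt2*, *Dnmt3a* and *Tet3* are weaker on the right (0.782 to 0.554 for *Ehmt2* with *Dnmt3a*). *Suv39h1* stays red with *Dnmt1* and with *Uhrf1*, and *Dnmt1* with *Uhrf1* is stronger on the right (0.486 to 0.785).

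The genes most like each member across the 10 tumors were found among all tested genes by Pearson r of the log2 values. *Suv39h1* was most like *Cdca5* (0.959), which encodes sororin, a cohesin regulator, and *Cdk1* (0.959), the mitotic kinase. *Uhrf1* was most like *Timeless* (0.960), a replication fork gene, and *Tmem120b* (0.949). *Dnmt1* was most like *Rchy1* (0.926), a ubiquitin ligase gene, and *Ncaph* (0.904), a condensin subunit. *Dnmt3b* was most like *Wdr62* (0.931) and *Bend4* (0.894), *Suv39h2* like *Pstpip2* (0.958) and *Zbed5* (0.953), and *Ehmt1* like *Ipo9* (0.962) and *Amot* (0.934). *Ehmt2* was most like *Clpp* (0.980) and *Nfkbil1* (0.977), *Dnmt3a* like *Col9a3* (0.972) and *Aph1a* (0.957), *Tet2* like *Sp1* (0.935) and Gm38253 (0.933), and *Tet3* like Gm30015 (0.968) and *Pcbp2* (0.961). With 21034 genes and 10 tumors such values are the highest of many and carry no test.

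Genes that work with the 10 were taken from lists of the same pathways. Whether each listed reader binds the mark itself was not checked. By limma, 0 genes of every list named here had an adjusted p under 0.05. Counts at an unadjusted p under 0.05 are given below, where the share of all tested genes was 2.28%. Of 18 other H3K9 methyltransferases and partners, 1 was higher and 1 lower. The higher one was *Prdm16* (log2 fold change 0.72, limma p = 0.0247, exact permutation p = 0.0476, with means of 89.1 in wildtype and 149.8 in gene trap). The lower one was *Resf1*, the trapped gene itself. Of 12 listed H3K9 demethylases, 11 were tested and 0 passed, with *Jmjd1c* at -0.12 and *Kdm3a* at -0.12. Of 12 readers of H3K9 methylation 0 passed, with *Cbx1*, which encodes HP1 beta, at 0.17 and *Adnp* at 0.39.

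Of 26 listed DNA methylation cofactors and removal genes, 23 were tested and 0 passed, with the glycosylase gene *Mbd4* at 0.16 and *Cdca7l* at -0.13. Of 12 genes listed under the reading of methylated DNA, 1 was lower, *Zbtb38* (log2 fold change -0.16, limma p = 0.0226, exact permutation p = 0.0159, with means of 4749 and 4252). *Baz2b*, from the same list, was at -0.19. Of the 40 S phase genes 1 was higher, the mismatch repair gene *Msh6* (0.19, limma p = 0.0116, exact permutation p = 0.0159), and *Gins3* was at 0.27, and of the 30 G2 and M phase genes 0 passed, with *Nuf2* at -0.16 and *Kif2c* at -0.14. Of 26 germline genes that these marks silence in somatic cells, 8 were in the table and 5 passed the filter on low values, of which 0 passed the test, with *Tdrkh* at 0.22 and *Brdt* at -0.11.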

How the data were processed

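The authors deposited a table of read estimates per gene that had been normalized by the median ratio method, treated here as a signal and not as counts. The submitters' processing notes name Partek, STAR 2.7.8a, DESeq2 and mm39, and the annotation is not given in the sources used here. Of 16 columns, 10 were matched to a tumor and 6 were not used. Column totals were 31995078 to 42153593. Genes with a mean of at least 10 were fitted on log2(value + 1) with limma 3.58.1 (R 4.3.3, trended empirical Bayes, group only). Correlations with the S phase score used 100000 shuffles of the tumors for every tested gene. Within groups, deviations from group means were used. Symbols were found for 22899 of 23609 IDs. Transcript lengths came from GENCODE release M21 and promoter windows from RefSeq (GRCm38.p6), so no gene coordinates are given on mm39. The limma fit and the correlation test were run on simulated data, and the other steps were not.

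The 10 genes and all lists were chosen with earlier results of these data known, and the fold changes above are not independent support for them. The genes named are the 10, *Resf1*, the 2 genes of each list with the smallest p, and the 2 genes most like each of the 10. *Tet1*, *Setdb1*, *Setdb2* and *Uhrf2* were named outside this rule after their values were seen. The labels give no batch. Alternatives were other pseudocounts, filters, normalization, weights, variance models, a replicate block, leaving out each tumor and, for the correlations, group-mean deviations and a G2 and M phase score.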

Additional observations from a re-analysis of the deposited data

Results flagged for a closer look

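Of 22 groups of 5 tumors examined for the 10 genes and the S phase score, 3 held a single tumor whose gap to the nearest other tumor exceeded Dixon's 95% critical value, where chance gives about 1.1. *Ehmt1* was 2772 in wildtype replicate 2, below the 2982 to 3042 of the other wildtype tumors. *Dnmt1* was 6808 in gene trap replicate 4, the tumor with the highest S phase score, above the 5361 to 5745 of the other gene trap tumors. *Dnmt3a* was 5018 in gene trap replicate 2, the tumor that stood apart over all genes, above the 3596 to 3967 of the others.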

How the results depend on the processing

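After adjustment 0 genes had p under 0.05 in limma in each of 19 alternatives, and 308 to 692 did before adjustment. The number of the 10 genes at an unadjusted p under 0.05 was 0 except without gene trap replicate 5, where it was 1 (*Uhrf1*), so leaving out a tumor gave 0 to 1. No pairing by replicate number was seen. The correlation of deviations between same-numbered tumors averaged -0.0098 and ran from -0.156 to 0.149, and 5 pairs cannot show that the tumors were unpaired. A fit with the replicate block gave 0 genes after adjustment and 426 at an unadjusted p under 0.05. Leaving out single tumors turned the sign of the log2 fold change of *Suv39h1* (-0.025 to 0.072), *Dnmt1* (-0.039 to 0.047) and *Dnmt3b* (-0.092 to 0.099). The r with the S phase score changed sign for *Ehmt2* (-0.106 to 0.234), *Tet2* (-0.441 to 0.0232) and *Tet3* (-0.238 to 0.0281) on leaving out a tumor. It was -0.0923 for *Ehmt2* under quantile normalization, and with a G2 and M phase score it was -0.267 for *Ehmt2* and 0.0220 for *Tet2*, while *Suv39h1* had 0.890, *Suv39h2* 0.795 (permutation p = 0.00619), *Dnmt1* 0.785 (permutation p = 0.00396), *Ehmt1* 0.671 (permutation p = 0.0357) and *Uhrf1* 0.558 (permutation p = 0.0764). The cause was not tested. With 5 tumors per group the fold intervals of the 10 genes reached from 0.740 to 1.40, and the depth of each tumor is unknown.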
